A study of Mus musculus with 99 samples.

Results

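The forkhead (Fox) family of transcription factors was followed through every RNA and chromatin library of a study of Polycomb repression in mouse embryonic stem cells (ESCs). The members were 41 Fox genes taken by name from the count table, out of 55341 gene names in all, together with every peak lying within 2.5 kb of their annotated transcription start sites. They were split by the RING1B peak list of untreated Parental cells into 26 Polycomb-bound and 15 unbound members. The study asked whether Polycomb repression needs the catalytic activity of RING1B, the ubiquitin ligase of Polycomb repressive complex 1 (PRC1), or only its presence. It compared ESC lines in which endogenous RING1B could be deleted by 4-hydroxytamoxifen (OHT).

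The Parental line carried creERT2 at ROSA26, was deleted for RING1A and had floxed RING1B alleles, so its untreated controls also lacked RING1A. The RING1B WT and RING1B I53S lines were clones of the Parental line that stably expressed FLAG-HA-tagged RING1B from a pCAG vector, either wild type or with the I53S change that abolishes ligase activity. A separate ESC line with creERT2 had floxed alleles of Eed, a core subunit of Polycomb repressive complex 2 (PRC2). The study lists clones of this line, and the labels do not say which clone gave each library. Treated cells (+OHT) received 0.5 µM OHT for 72 h and controls (−OHT) received ethanol. Each of these 8 groups had 2 RNA-seq libraries, 16 in all. Chromatin immunoprecipitation (ChIP) peaks came from 70 lists for 12 antibodies, mostly 1 list per antibody and condition, and from 4 input lists. They also covered 48 h of OHT and CRISPR clones without MTF2, a PRC2-associated protein, made in the Parental, RING1B WT and RING1B I53S backgrounds. All cells were grown on gelatin in medium with serum, LIF and inhibitors of MEK and GSK3.

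Fox proteins share a winged-helix DNA-binding domain, and several of them can bind their sites in closed chromatin. Many are switched on in particular germ layers and organs, among them FOXA factors in endoderm, FOXF factors in lateral mesoderm and FOXE1 in the thyroid. Others work in most dividing cells, such as FOXM1 in mitosis and the FOXO factors downstream of insulin and AKT signalling. In ESCs, Polycomb complexes sit at the CpG-rich promoters of many silent developmental regulators, where PRC1 attaches ubiquitin to histone H2A (the mark H2AK119ub1) and PRC2 attaches methyl groups to histone H3 (the mark H3K27me3).

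The 12 libraries of the 3 RING1B lines held 8140106 to 12743460 counts, and the 4 of the Eed line held 6957248 to 9443814. Counts above 0 were found for 23578 to 28032 genes in the first set and for 43762 to 46757 in the Eed libraries. The Eed libraries were treated as a separate experiment and fitted apart. Rnf2, which encodes RING1B, had 2434 and 2080 counts in Parental −OHT and 1686 and 1711 with OHT, a sum over all exons that does not isolate the floxed part. Eed had 2069 and 1446 counts in Eed fl/fl −OHT and 539 and 356 with OHT. ESC markers (10 genes such as Pou5f1 and Nanog) summed to between 6160 and 7800 CPM (counts scaled to library size) in all −OHT libraries.

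A RING1B peak lay within 2.5 kb of a start site of 26 of the 41 Fox members (63.4%) in Parental −OHT, beside 9.33% of the 55341 genes and 17.7% of 21923 protein-coding genes. The bound members were Foxa1, Foxa2, Foxb1, Foxb2, Foxc1, Foxc2, Foxd1 to Foxd4, Foxe1, Foxe3, Foxf1, Foxf2, Foxi2, Foxi3, Foxj1, Foxj2, Foxl1, Foxl2, Foxo1, Foxo3, Foxo6, Foxp1, Foxp2 and Foxq1. The unbound members were Foxa3, Foxh1, Foxi1, Foxj3, Foxk1, Foxk2, Foxm1, Foxn1 to Foxn4, Foxo4, Foxp3, Foxp4 and Foxs1. The bound member whose peak lay farthest from a start was Foxo3, at 1.05 kb, and the unbound member with the nearest peak was Foxs1, at 9.38 kb. Some members are neighbours and share their chromatin. Foxc2 lies 9.0 kb from Foxl1 and 28.0 kb from Foxf1 on chromosome 8, Foxf2 lies 64.8 kb from Foxq1 and 175.2 kb from Foxc1 on chromosome 13, and Foxd2 lies 16.3 kb from Foxe3 on chromosome 4. Foxc2 and Foxl1 were covered by the same peak in the JARID2 and MTF2 lists of Parental −OHT.

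Promoter sequences from RefSeq (GRCm38.p6) matched 26 of the 41 members, 17 bound and 9 unbound. The 250 bases before the start are shown for the 3 matched bound members with the lowest adjusted p in the Parental comparison and for the 3 matched unbound members with the highest mean level, since CpG density is the sequence feature most tied to Polycomb targeting. Capitals mark CpG dinucleotides. Foxa1 was read at chr12:57546112-57546361 on the minus strand, Foxj2 at chr6:122819934-122820183 on the plus strand and Foxf2 at chr13:31625566-31625815 on the plus strand. The unbound Foxn3 was read at chr12:99450075-99450324 on the minus strand, Foxk2 at chr11:121259737-121259986 on the plus strand and Foxj3 at chr4:119539411-119539660 on the plus strand. The starts used for Foxa1, Foxj2, Foxj3 and Foxn3 lie inside the gene, downstream of its outermost annotated start.
Foxa1: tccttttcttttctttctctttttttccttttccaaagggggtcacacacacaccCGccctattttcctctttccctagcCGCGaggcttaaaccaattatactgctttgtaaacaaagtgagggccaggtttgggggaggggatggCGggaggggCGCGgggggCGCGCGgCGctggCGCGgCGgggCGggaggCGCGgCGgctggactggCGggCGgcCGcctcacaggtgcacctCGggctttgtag
Foxj2: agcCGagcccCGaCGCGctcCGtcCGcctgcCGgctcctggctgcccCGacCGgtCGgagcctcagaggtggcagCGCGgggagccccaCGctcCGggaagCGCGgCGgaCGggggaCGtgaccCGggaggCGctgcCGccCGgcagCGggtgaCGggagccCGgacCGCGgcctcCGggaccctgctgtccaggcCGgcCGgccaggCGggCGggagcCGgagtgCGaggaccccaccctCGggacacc
Foxf2: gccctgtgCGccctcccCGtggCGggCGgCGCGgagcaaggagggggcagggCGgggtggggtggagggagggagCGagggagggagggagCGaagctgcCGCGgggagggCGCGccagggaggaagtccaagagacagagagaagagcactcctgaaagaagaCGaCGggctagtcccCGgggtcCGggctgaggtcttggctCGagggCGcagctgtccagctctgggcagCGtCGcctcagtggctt
Foxn3: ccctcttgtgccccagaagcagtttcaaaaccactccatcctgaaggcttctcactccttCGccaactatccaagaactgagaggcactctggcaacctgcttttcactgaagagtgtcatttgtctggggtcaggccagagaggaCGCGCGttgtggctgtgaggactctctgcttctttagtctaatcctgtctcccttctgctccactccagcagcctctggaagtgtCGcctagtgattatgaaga
Foxk2: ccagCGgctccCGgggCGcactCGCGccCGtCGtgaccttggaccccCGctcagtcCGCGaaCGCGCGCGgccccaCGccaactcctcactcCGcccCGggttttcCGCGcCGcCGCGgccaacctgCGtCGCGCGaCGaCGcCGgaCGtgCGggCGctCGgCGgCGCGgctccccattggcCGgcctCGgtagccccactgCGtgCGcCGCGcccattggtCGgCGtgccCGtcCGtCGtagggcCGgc
Foxj3: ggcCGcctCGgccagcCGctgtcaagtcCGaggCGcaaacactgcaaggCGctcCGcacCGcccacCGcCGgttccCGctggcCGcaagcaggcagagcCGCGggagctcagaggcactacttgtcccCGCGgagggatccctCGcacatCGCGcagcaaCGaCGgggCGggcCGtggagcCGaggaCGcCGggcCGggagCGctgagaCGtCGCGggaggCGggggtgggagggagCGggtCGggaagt

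These stretches held 21, 36 and 21 CpGs in the bound Foxa1, Foxj2 and Foxf2 and 5, 48 and 34 in the unbound Foxn3, Foxk2 and Foxj3. RING1B peaks covered all 3 of the bound stretches, running from 57541953 to 57547322 on chromosome 12 at Foxa1, from 122819485 to 122820545 on chromosome 6 at Foxj2 and from 31624302 to 31630635 on chromosome 13 at Foxf2. In the 300 bases around the start, the median CpG number was 26 over the 17 bound Fox promoters and 22 over the 9 unbound ones, while it was 21 over all bound genes and 8 over all unbound genes. CpG-dense promoters were therefore present on both sides of the split, and the Foxk2 stretch was the richest of the 6 printed. The forkhead motif GTAAACA, searched on both strands with TGTTTAC as its reverse, occurred in the Foxa1 window and in no other of the 26 Fox promoters, beside 3.19% of all promoters of this length. The E-box CACGTG, which PRC1 containing PCGF6 can reach through MAX and MGA, occurred at Foxd3 alone among the 26 and in 7.69% of all promoters.

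Among bound members, the lowest RING1B peaks belonged to genes that were transcribed. Peak height is the −log10 p that MACS2 gave, which can be ranked only within a list, and transcript level is CPM per kb of exon. The 4 lowest RING1B peaks were those of Foxo3 (12.6), Foxj1 (15.8), Foxo1 (17.1) and Foxj2 (19.6), which all lay between the top 69.3% and the top 87.3% of the 5073 peaks. Foxo3, Foxo1 and Foxj2 were transcribed at 13.4, 2.59 and 1.36 CPM per kb in Parental −OHT, and Foxj1 at 0.46. The tallest peaks were those of Foxd4 (253.3) and Foxd2 (245.3), in the top 0.808% and 0.986%, and both genes had 0 counts in Parental −OHT. Foxp1, a regulator of ESC and lymphocyte genes, went against this order when its highest peak, of 200.8, was set beside its level of 4.55 CPM per kb. The gene has 22 annotated starts, and a lower RING1B peak, of 16.7, covered a start as well. Its level is summed over all exons, so the start in use was not resolved. Foxd3, a factor of pluripotent cells and neural crest, had a peak of 154.5 and 0.918 CPM per kb. The median Fox peak stood in the top 7.06% of the list, and 16 of the 26 stood in its top 10%.

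**Figure D1:**
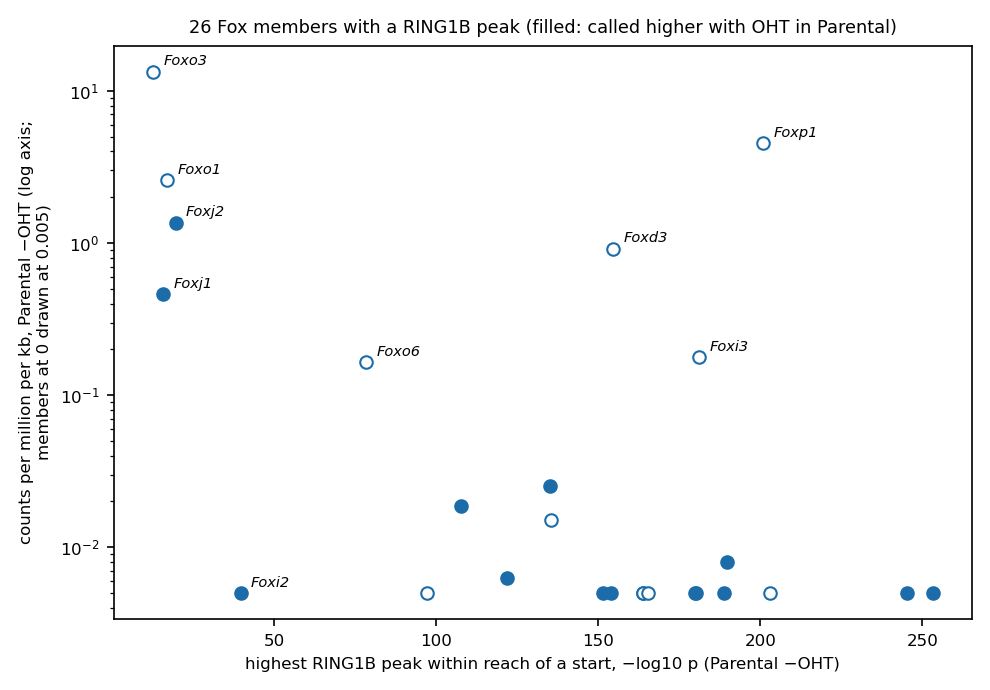
RING1B peak height (−log10 p, highest peak within 2.5 kb of a start) against transcript level (CPM per kb of exon, mean of 2 libraries) for the 26 bound members in Parental −OHT. Foxo3, Foxo1, Foxj2 and Foxj1 lie at low peak height, while Foxp1 and Foxd3 combine transcription with tall peaks. Foxp1 also has a lower peak that is not drawn.

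Deletion of RING1B in Parental cells raised developmental Fox genes from silence. With OHT, 15 of the 41 members rose and none fell past the threshold of a log2 fold change of 1.5 at an adjusted p under 0.05 (edgeR quasi-likelihood test, Benjamini-Hochberg, used for every adjusted p here). Of these, 14 were bound (Foxa1, Foxa2, Foxb1, Foxd1, Foxd2, Foxd4, Foxe1, Foxf1, Foxf2, Foxi2, Foxj1, Foxj2, Foxp2 and Foxq1), and 1, Foxs1, was unbound. Over all 18154 genes tested, 15.1% rose and 1.83% fell. The 14 risen genes were 53.8% of the 26 bound members in the table, beside 32.3% of all 5162 bound genes, while 46.3% of the bound genes that were tested rose. Foxs1 was 7.69% of the 13 tested unbound members, beside 7.44% of all tested unbound genes.

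The low-count filter shapes these shares. It left 19 bound and 13 unbound members to test, and 13 of the 19 bound members had fewer than 10 counts in every −OHT library of the 3 lines, so that they could pass only through a group in which they were high. The median log2 fold change over the 19 bound members was 4.16, or 3.01 with genes at 0 held to the bound given by a floor of 3 counts, beside 1.48 over all bound genes. Over the 13 unbound members it was -0.21, beside -0.11 over all unbound genes. The bound members not tested in this fit were Foxb2, Foxc1, Foxc2, Foxe3, Foxi3, Foxl1 and Foxl2, and the unbound ones were Foxi1 and Foxp3.

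**Figure D2:**
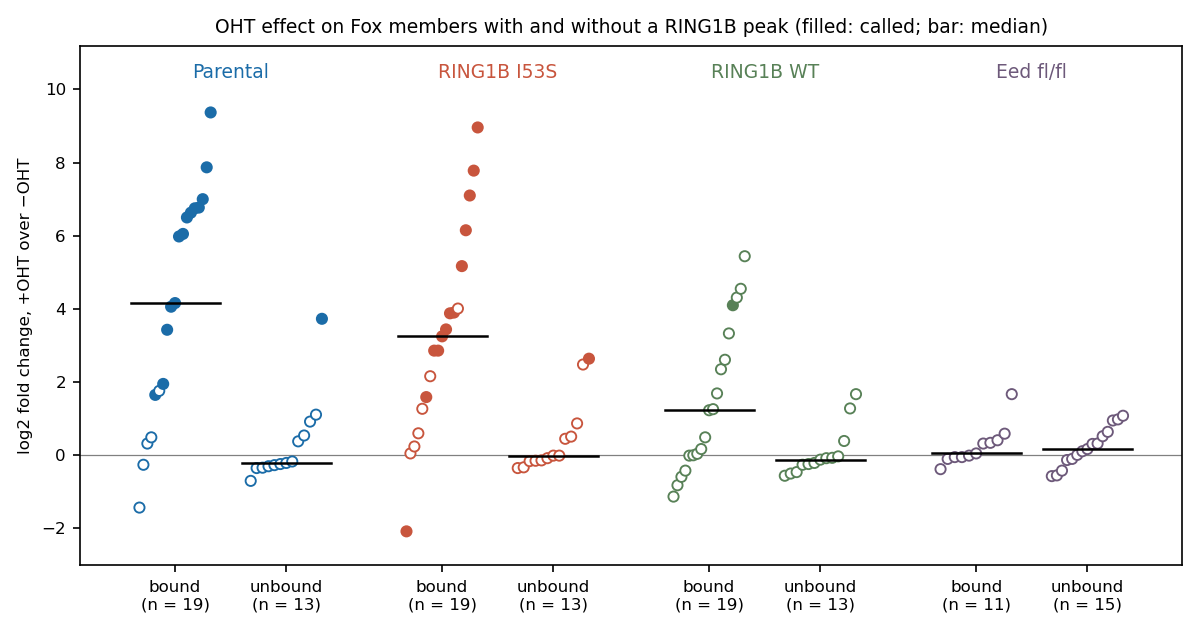
Log2 fold change with OHT for each tested Fox member, bound and unbound by RING1B, in the Parental, RING1B I53S, RING1B WT and Eed fl/fl lines, with filled points for called members and a bar at the median. Bound members reach fitted values of 9.37 in Parental and 8.96 in RING1B I53S, which are no measured sizes where −OHT counts were 0, while unbound members lie mostly near 0 in all 4 lines.

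Counts of single members are given below for each line as the 2 −OHT libraries followed by the 2 +OHT libraries. Floors and intervals cover counting error only. Foxf1 and Foxf2 direct lateral mesoderm and the mesenchyme of lung and gut. Foxf1 had 0, 0, 105 and 72 counts in Parental, 0, 0, 65 and 64 in RING1B I53S, 0, 0, 1 and 8 in RING1B WT and 8, 9, 3 and 13 in Eed fl/fl. It was at least 54.7-fold higher with OHT in Parental (adjusted p = 8.38e-06) and at least 46.6-fold higher in RING1B I53S (adjusted p = 1.99e-05), the lowest adjusted p among the members in both lines. Foxf2, on another chromosome, had 0, 0, 41 and 22 counts in Parental, 0, 0, 13 and 46 in RING1B I53S, 0, 0, 0 and 4 in RING1B WT and 5, 8, 7 and 9 in Eed fl/fl. It was at least 19.5-fold and at least 21.3-fold higher (adjusted p = 0.000791 and 0.000918), calls that DESeq2 did not make (adjusted p = 0.0983 and 0.109). Both genes overlap an antisense transcript, and the counting did not use strand, so the sense transcript was not measured alone. The same holds for Foxb1, Foxe1, Foxj2, Foxl2, Foxo1, Foxp3 and Foxq1.

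Foxa1 and Foxa2 encode pioneer factors of endoderm, floor plate and liver. Foxa1 had 0, 1, 51 and 35 counts in Parental, 2, 7, 42 and 53 in RING1B I53S, 4, 0, 15 and 6 in RING1B WT and 3, 4, 3 and 10 in Eed fl/fl. The ratio of CPM was 79.7 in Parental (95% exact counting interval 13.9 to 3180, log2 fold change 5.98, SE 1.01, adjusted p = 0.00014), and the log2 fold change in RING1B I53S was 3.44 (SE 0.72, adjusted p = 0.00133). Foxa2 had 0, 0, 4 and 13 counts in Parental, 0, 0, 21 and 14 in RING1B I53S, 0, 1, 3 and 4 in RING1B WT and 0, 1, 2 and 7 in Eed fl/fl. It was at least 5.25-fold higher in Parental (adjusted p = 0.00995) and at least 12.6-fold higher in RING1B I53S (adjusted p = 0.00165). The Parental call for Foxa2 was lost, at an adjusted p of up to 0.108, without +OHT replicate 2 or −OHT replicate 1. Foxq1, which acts in hair and in epithelial differentiation, had 3, 0, 26 and 11 counts in Parental, 2, 2, 19 and 9 in RING1B I53S, 0, 3, 6 and 4 in RING1B WT and 5, 5, 4 and 8 in Eed fl/fl. Its ratio was 11.4 (95% interval 3.62 to 58.0) in Parental, with an adjusted p of 0.0114 that rose to 0.114 without +OHT replicate 1 or −OHT replicate 2, and the log2 fold change in RING1B I53S was 2.86 (SE 0.96, adjusted p = 0.0324).

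Foxb1, Foxd1, Foxd2, Foxd4 and Foxi2 are expressed in neural tissue, kidney stroma, placodal ectoderm and other embryonic tissues. Foxb1 had 0, 0, 12 and 14 counts in Parental, 0, 0, 1 and 3 in RING1B I53S, 0, 0, 0 and 0 in RING1B WT and 5, 7, 5 and 10 in Eed fl/fl. It rose at least 8.03-fold in Parental (adjusted p = 0.00429), and in RING1B I53S it reached 1 and 3 counts without passing the test (adjusted p = 0.146). Foxd1 had 1, 0, 12 and 10 counts in Parental, 0, 1, 14 and 3 in RING1B I53S, 1, 1, 0 and 1 in RING1B WT and 2, 21, 7 and 14 in Eed fl/fl. Its ratio was 20.4 (95% interval 3.3 to 842) in Parental and 18.4 (2.88 to 769) in RING1B I53S, with adjusted p = 0.0175 and 0.029, and the Parental call was lost whichever of the 4 libraries was left out. Foxd2 had 0, 0, 17 and 12 counts in Parental, 0, 0, 12 and 6 in RING1B I53S, 0, 0, 2 and 0 in RING1B WT and 3, 8, 2 and 3 in Eed fl/fl. It was at least 8.96-fold higher in Parental (adjusted p = 0.00327) and at least 6.5-fold higher in RING1B I53S (adjusted p = 0.00906). Foxd4 had 0, 0, 15 and 9 counts in Parental, 4, 0, 12 and 16 in RING1B I53S, 0, 2, 3 and 2 in RING1B WT and 0, 8, 2 and 12 in Eed fl/fl. It was at least 7.42-fold higher in Parental (adjusted p = 0.00443), and its log2 fold change in RING1B I53S was 2.86 (SE 0.96, adjusted p = 0.0328). Foxi2 had 0, 0, 10 and 18 counts in Parental, 0, 1, 9 and 35 in RING1B I53S, 0, 0, 5 and 0 in RING1B WT and 1, 19, 1 and 14 in Eed fl/fl. It rose at least 8.65-fold in Parental (adjusted p = 0.00595) and by a ratio of 47.6 (8.12 to 1920) in RING1B I53S (adjusted p = 0.005).

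Foxe1, the thyroid factor, had 0, 0, 9 and 24 counts in Parental, 2, 0, 8 and 23 in RING1B I53S, 2, 0, 1 and 1 in RING1B WT and 0, 1, 0 and 1 in Eed fl/fl. It was at least 10.2-fold higher in Parental (adjusted p = 0.00255), and its ratio in RING1B I53S was 16.8 (4.27 to 145, adjusted p = 0.0135). Foxp2, known from brain and lung, had 1, 1, 20 and 23 counts in Parental, 4, 2, 30 and 24 in RING1B I53S, 0, 1, 9 and 11 in RING1B WT and 111, 120, 113 and 122 in Eed fl/fl. It was the member called in all 3 RING1B lines, with ratios of 19.9 (5.19 to 170, adjusted p = 0.000894) in Parental and 20.6 (3.29 to 852, adjusted p = 0.0413) in RING1B WT and a log2 fold change of 3.25 (SE 0.71, adjusted p = 0.00183) in RING1B I53S. Its counts in the Eed line were already above 100 without OHT, against at most 4 in any −OHT library of the RING1B lines.

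Foxj1 and Foxj2 differed from the members above in being transcribed before deletion. Foxj1, the master regulator of motile cilia, had 19, 7, 42 and 63 counts in Parental, 27, 12, 34 and 75 in RING1B I53S, 13, 5, 28 and 14 in RING1B WT and 3, 10, 16 and 25 in Eed fl/fl. Its log2 fold change was 1.95 (SE 0.54, adjusted p = 0.00816) in Parental and 1.59 (SE 0.51, adjusted p = 0.0266) in RING1B I53S, and each call was lost without replicate 2 of either condition (adjusted p up to 0.108 and 0.217). Foxj2, a broadly expressed member, had 90, 58, 243 and 255 counts in Parental, 186, 67, 281 and 262 in RING1B I53S, 90, 65, 137 and 78 in RING1B WT and 87, 98, 103 and 139 in Eed fl/fl. It rose by 1.65 in Parental (SE 0.32, adjusted p = 0.00059) and was 1.27 higher in RING1B I53S (SE 0.31, adjusted p = 0.00471), below the fold threshold.

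**Figure D3:**
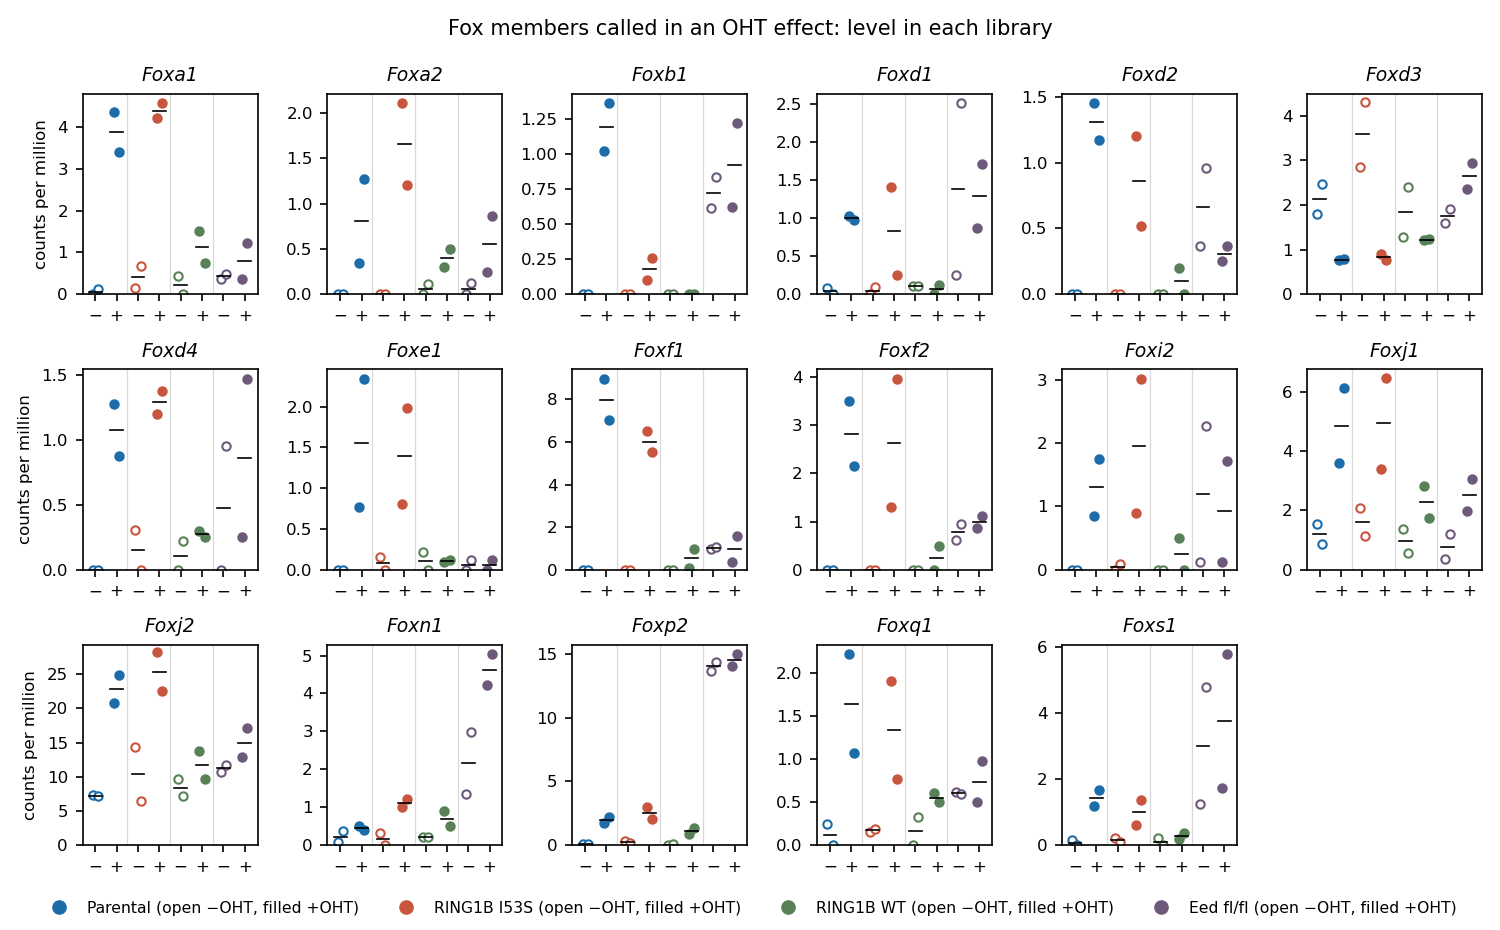
CPM in each of the 16 libraries for the 17 members called in at least 1 OHT comparison. Open points are −OHT, filled points +OHT, and the bar is the mean of 2 libraries. Filled points stand above open ones in Parental and RING1B I53S for most members, Foxd3 runs the other way, and Foxp2 is high in both Eed groups.

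The RING1B I53S line, whose endogenous RING1B was replaced by the inactive protein, tests the need for ligase activity. Here 13 members rose with OHT and 1, Foxd3, fell, beside 12.8% and 1.04% of all genes tested. The risen ones were 12 bound members (Foxa1, Foxa2, Foxd1, Foxd2, Foxd4, Foxe1, Foxf1, Foxf2, Foxi2, Foxj1, Foxp2 and Foxq1) and the unbound Foxn1. They made up 46.2% of the 26 bound members, beside 29.3% of all bound genes, and among tested genes 42.1% of bound and 5.56% of unbound ones rose. The median log2 fold change was 3.25 over the tested bound members (2.86 at the bounds), beside 1.33 over all bound genes. Over the unbound members it was -0.01, beside -0.1 over all unbound genes. The limit set by the low-count filter, given above for Parental, holds here too. Foxd3 had 22, 20, 9 and 8 counts in Parental, 37, 45, 9 and 9 in RING1B I53S, 12, 22, 12 and 10 in RING1B WT and 13, 16, 19 and 24 in Eed fl/fl. It fell by 2.08 on the log2 scale in RING1B I53S (SE 0.53, adjusted p = 0.00637), a call lost without −OHT replicate 2 (adjusted p = 0.0711). In Parental the change was -1.43 (SE 0.56, adjusted p = 0.0523), which did not pass. The count of 14 calls in this line dropped to 6 without −OHT replicate 2 and to 9 without +OHT replicate 2, and 5 members (Foxa1, Foxa2, Foxf1, Foxf2 and Foxp2) remained called by edgeR with each of the 4 libraries left out. The other 9 calls were lost without at least 1 library, at largest adjusted p-values between 0.0562 for Foxd2 and 0.33 for Foxd1.

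The difference between the OHT effects of RING1B I53S and Parental was tested directly. None of the 32 tested members differed (edgeR, 0 at an unadjusted p under 0.05, 0 by DESeq2), and no gene of all those tested was lower in this contrast (0.0%). For Foxa2, Foxb1, Foxd2, Foxd4, Foxe1, Foxf1, Foxf2 and Foxi2, at 0 in Parental −OHT, the size of the difference could not be estimated, and over the other members it ranged from -2.54 (Foxa1, SE 1.46) to 1.53 (Foxn1, SE 1.5). For Foxj2, which had enough counts, the difference was -0.38 (SE 0.45). Without OHT neither RING1B I53S nor RING1B WT differed from Parental at any member (edgeR, 0 calls each, 1 member at an unadjusted p under 0.05 each, 0 calls by DESeq2). The member with the low p was Foxn4, an unbound factor of retinal progenitors, at -1.29 (SE 0.3, adjusted p = 0.0791) and -1.03 (SE 0.3, adjusted p = 0.503).

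In the RING1B WT line, where the tagged wild-type protein remained, Foxp2 was the 1 member that rose and none fell, while 1.34% of all tested genes and 4.53% of the tested bound genes rose. The Foxp2 call was lost whichever of the 4 libraries was left out and with DESeq2 (adjusted p = 0.117). The median log2 fold change of the 19 tested bound members was 1.23, beside 0.49 over all bound genes, and that of unbound members was -0.12. With genes at 0 held to their bound and those at or under the floor of 3 counts in both groups left out, it was 0.78 over 15 bound members. The value over all bound genes was then 0.47. Foxf1 went from 0 and 0 to 1 and 8 counts, at least 3.08-fold higher (adjusted p = 0.118).

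Compared at +OHT, 4 bound members were higher in RING1B I53S than in RING1B WT, namely Foxe1, Foxf1, Foxf2 and Foxo6, beside 6.02% of all genes and 23.4% of bound genes. Foxf1 was higher by 3.52 (SE 0.65, adjusted p = 0.00214), and it was the call of these 4 that held with each of the 4 libraries left out, the others being reduced to 0 and 1 without RING1B WT +OHT replicates 1 and 2. Foxo6, a FOXO factor of brain, had 24 and 17 counts in RING1B I53S +OHT and 2 and 1 in RING1B WT +OHT, a ratio of 11.4 (3.63 to 57.4, adjusted p = 0.0314). Against Parental +OHT, which shares the RING1B WT libraries with the last comparison, 7 bound members were lower in RING1B WT (Foxb1, Foxd1, Foxd2, Foxe1, Foxf1, Foxf2 and Foxo6), beside 7.62% of all genes and 25.6% of bound genes. Foxf1 was at -3.93 (SE 0.64, adjusted p = 0.000578) and again held with each library left out, while the count of calls was 3 without Parental +OHT replicate 1, 2 without its replicate 2, 1 without RING1B WT +OHT replicate 1 and 2 without its replicate 2. Of the other 6, DESeq2 called none. The OHT effect itself was not called different between RING1B WT and Parental at any member (edgeR, 3 members at an unadjusted p under 0.05, 0 calls by DESeq2), although 1.1% of all genes had a smaller effect in RING1B WT. The 3 members with a low p were Foxa1, at -3.63 (SE 1.67), Foxj2, at -1.16 (SE 0.46), and Foxe1, whose size could not be estimated, like that of the other members at 0 in Parental −OHT.

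Deletion of Eed gave no call among the 26 members that could be tested there, in a fit where 0.00795% of 25170 genes rose. By edgeR 2 members had an unadjusted p under 0.05, and DESeq2 made 0 calls. The members with the low p were Foxj1, at 1.67 (SE 0.66), and Foxh1, at -0.55 (SE 0.25). In an alternative edgeR fit with replicate number as a block, Foxj1 was called (1.72, SE 0.56, adjusted p = 0.0349). The labels state no pairing of replicates, so which fit applies was not settled. The tested set held 11 bound and 15 unbound members, with median log2 fold changes of 0.05 and 0.17, so 9 of the 15 members that rose in Parental (Foxa1, Foxa2, Foxb1, Foxd2, Foxd4, Foxe1, Foxf1, Foxf2 and Foxq1) had too few counts to be tested. Foxf1 illustrates the level there, with 1.03 ± 0.0627 CPM without and 0.984 ± 0.864 CPM with OHT (SD, n = 2), against 7.99 ± 1.38 CPM in Parental +OHT. Beside the wider detection in the Eed libraries, several members that were near 0 in every other −OHT library had counts, among them Foxl1 (8 and 29), Foxs1 (10 and 40), Foxi1 (9 and 20) and Foxn1 (11 and 25). These levels were set in a separate fit and are side by side only.

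Foxh1, an unbound member, had the highest level of the family per length, while the bound Foxo3 had the highest mean CPM over the 12 libraries (110, against 103 for the unbound Foxn2). The 8 unbound members with the highest mean CPM were Foxn2, Foxh1, Foxn3, Foxm1, Foxk2, Foxj3, Foxo4 and Foxk1, and none of them was called in any line. Foxh1, the DNA-binding partner of SMAD2 in Nodal signalling, had 1135, 656, 673 and 854 counts in Parental, 1316, 823, 613 and 1157 in RING1B I53S, 1062, 738, 693 and 572 in RING1B WT and 893, 880, 644 and 549 in Eed fl/fl. It stood at 63.6 CPM per kb in Parental −OHT, and its log2 fold change there was -0.3 (SE 0.24). Foxn2, of the checkpoint suppressor subfamily, had 1489, 858, 1163 and 822 counts in Parental, 1410, 1101, 860 and 983 in RING1B I53S, 1073, 1011, 1072 and 913 in RING1B WT and 1054, 857, 839 and 562 in Eed fl/fl. Its changes were -0.34 (SE 0.18) in Parental and -0.33 (SE 0.18) in RING1B I53S, with all −OHT CPM values of Parental above those with OHT. Foxn3, its close relative, had 1018, 541, 847 and 590 counts in Parental, 989, 732, 761 and 656 in RING1B I53S, 795, 696, 741 and 590 in RING1B WT and 798, 734, 671 and 735 in Eed fl/fl. Foxm1, which drives genes of mitosis, had 443, 343, 329 and 342 counts in Parental, 538, 341, 435 and 349 in RING1B I53S, 435, 405, 424 and 276 in RING1B WT and 212, 250, 215 and 198 in Eed fl/fl. The log2 fold changes of both lay between -0.35 and -0.01 in the 3 RING1B lines, with no adjusted p below 0.237.

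Foxk2, which with Foxk1 regulates genes of glycolysis and autophagy, had 415, 300, 378 and 314 counts in Parental, 517, 354, 365 and 350 in RING1B I53S, 362, 401, 342 and 277 in RING1B WT and 194, 231, 230 and 288 in Eed fl/fl. Foxj3, a broadly expressed member, had 447, 229, 320 and 271 counts in Parental, 547, 300, 376 and 345 in RING1B I53S, 374, 298, 329 and 238 in RING1B WT and 216, 294, 245 and 260 in Eed fl/fl. Foxk1 had 135, 93, 125 and 192 counts in Parental, 264, 120, 153 and 190 in RING1B I53S, 125, 137, 130 and 111 in RING1B WT and 111, 140, 103 and 163 in Eed fl/fl. Their log2 fold changes in Parental were -0.17 (SE 0.2), -0.27 (SE 0.23) and 0.38 (SE 0.3), in that order. Foxo4, the FOXO gene on the X chromosome, had 415, 274, 226 and 231 counts in Parental, 360, 231, 198 and 224 in RING1B I53S, 338, 273, 238 and 182 in RING1B WT and 209, 280, 299 and 240 in Eed fl/fl. It was 33.8 ± 0.0406 CPM in Parental −OHT and 20.9 ± 2.28 CPM with OHT (SD, n = 2), a change of -0.7 (SE 0.21, adjusted p = 0.0158) that missed the fold threshold. In order of CPM per kb in Parental −OHT, Foxh1 (63.6) was followed by Foxn2 (15.5), Foxo4 (9.71), Foxm1 (6.82), Foxk2 (6.74), Foxn3 (6.51), Foxj3 (2.95) and Foxk1 (1.48), where Foxm1, Foxk2 and Foxn3 did not differ beyond their spread.

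**Figure D4:**
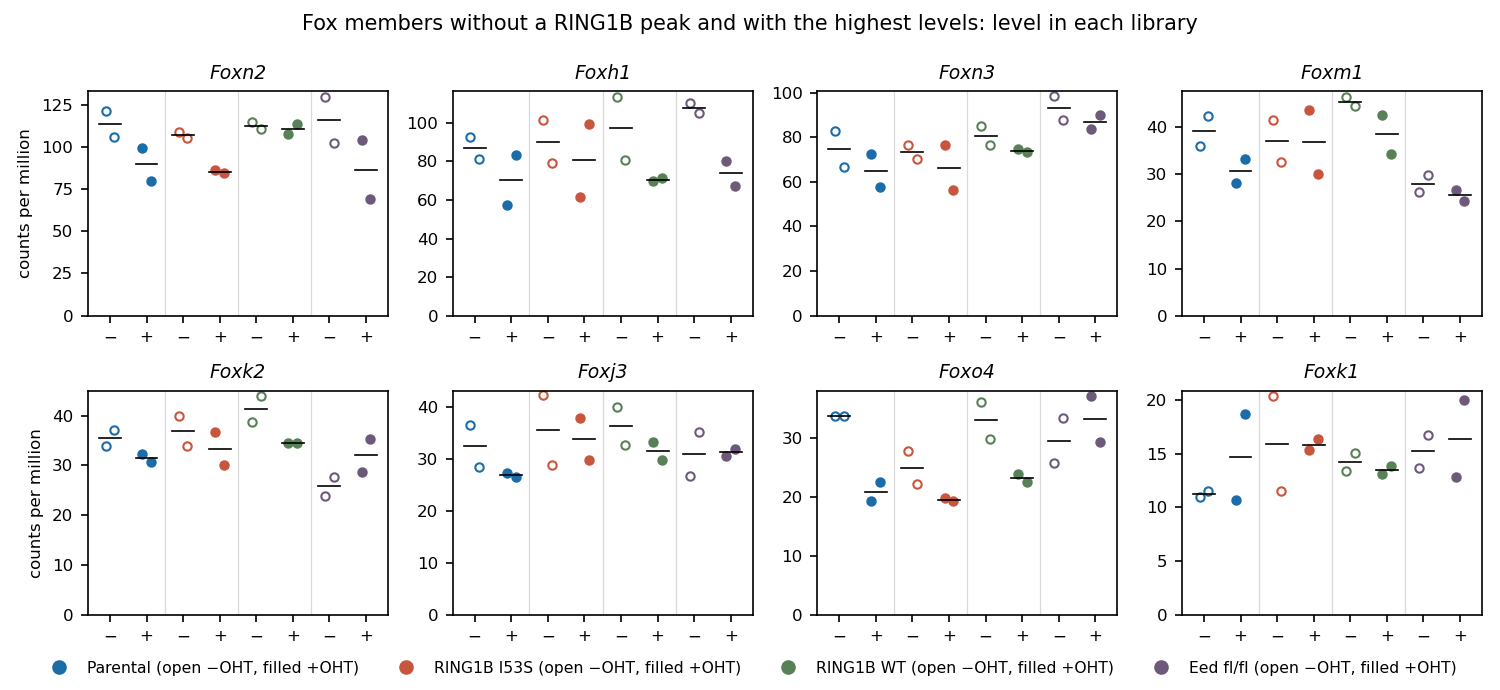
CPM in each of the 16 libraries for the 8 unbound members with the highest mean level, with open points for −OHT, filled points for +OHT and a bar for the mean of 2 libraries. The points of the 2 conditions overlap or lie close in most groups, and Foxo4 falls in Parental without reaching the fold threshold.

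Foxs1 and Foxn1 were the exceptions among unbound members. Foxs1, a gene of pericytes and sensory neurons, had 2, 0, 14 and 17 counts in Parental, 3, 1, 6 and 16 in RING1B I53S, 2, 0, 2 and 3 in RING1B WT and 10, 40, 14 and 47 in Eed fl/fl. Its ratio in Parental was 14.4 (3.66 to 124, adjusted p = 0.00872), a call lost without +OHT replicate 2 or −OHT replicate 2. In RING1B I53S the change was 2.48 (SE 0.95, adjusted p = 0.0592). Foxs1 had no peak of RING1B, SUZ12 or H2AK119ub1 in any line, but it had an H3K27me3 peak in all 4 conditions of the 3 RING1B lines with MTF2 intact, covering 3.85 kb in Parental −OHT and 2.2 kb in RING1B I53S +OHT. Foxn1, the gene of thymic epithelium and hair mutated in nude mice, had 1, 3, 6 and 4 counts in Parental, 4, 0, 10 and 14 in RING1B I53S, 2, 2, 9 and 4 in RING1B WT and 11, 25, 34 and 41 in Eed fl/fl. It rose by 2.64 in RING1B I53S (SE 0.94, adjusted p = 0.0426), a call that 3 of the 4 left-out libraries removed. An H3K27me3 peak lay at Foxn1 in Parental −OHT. In untreated Parental cells both genes thus had a PRC2 mark called without a RING1B peak.

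Of the 9 members with too few counts to test in the RING1B lines, 7 were bound. Foxe3, a lens gene, had 0 counts in all 12 libraries of the 3 RING1B lines. Foxl1, of gut mesenchyme, had at most 3 counts in any of the 12. Foxb2, Foxc1, Foxc2 and Foxl2 had at most 2 counts in any −OHT library of these lines, and in Parental +OHT they reached 11 and 3, 9 and 11, 10 and 15, and 9 and 3. None of them passed the filter, so no test stands behind these counts. Foxi3, a placodal and tooth gene, and the unbound Foxp3 of regulatory T cells and Foxi1 of inner ear stayed at 11 counts or fewer in all 12. Foxo3, Foxo1 and Foxp1 were transcribed and bound and were not called. Foxo3, a FOXO factor active in stem cells, had 1488, 655, 1672 and 1132 counts in Parental, 1630, 969, 1447 and 1314 in RING1B I53S, 958, 830, 1042 and 705 in RING1B WT and 675, 609, 810 and 790 in Eed fl/fl. Its change was 0.32 (SE 0.22) in Parental and 0.24 (SE 0.22) in RING1B I53S. Foxo1, its relative downstream of AKT, stood at 22.4 ± 2.01 and 31.5 ± 2.88 CPM in Parental without and with OHT (change 0.49, SE 0.29, adjusted p = 0.201), and Foxp1 at 62.5 ± 18.3 and 52.3 ± 9.72 CPM (change -0.26, SE 0.25).

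Most of the Polycomb proteins mapped had peaks at the bound members. In Parental −OHT, all 26 had peaks of H2AK119ub1, of H3K27me3, of the PRC1 subunits PCGF2 and CBX7, of the PRC2 subunit SUZ12 and of the PRC2 partners JARID2 and MTF2. Over all bound genes these shares were 79.2%, 90.4%, 87.1%, 84.7%, 95.5%, 95.5% and 98.5%. EPOP, another PRC2 partner, was at 25 of the 26 (all bound genes 89.8%), PCGF6 at 21 (69.5%), AEBP2 at 18 (24.3%) and RYBP at 10 (42.3%). The AEBP2 list was short, at 1331 peaks, and its 18 members were 69.2% of the bound Fox genes. The 4 input lists held no peak at any member. Of the 15 unbound members, 7 had H3K27me3 (Foxa3, Foxi1, Foxk1, Foxn1, Foxn3, Foxn4 and Foxs1), 7 had SUZ12 and 5 had H2AK119ub1, beside 13.0%, 14.2% and 10.4% of unbound protein-coding genes. Foxn4 had peaks of 7 of the 12 antibodies with no RING1B peak, and Foxo4 had none.

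**Figure D5:**
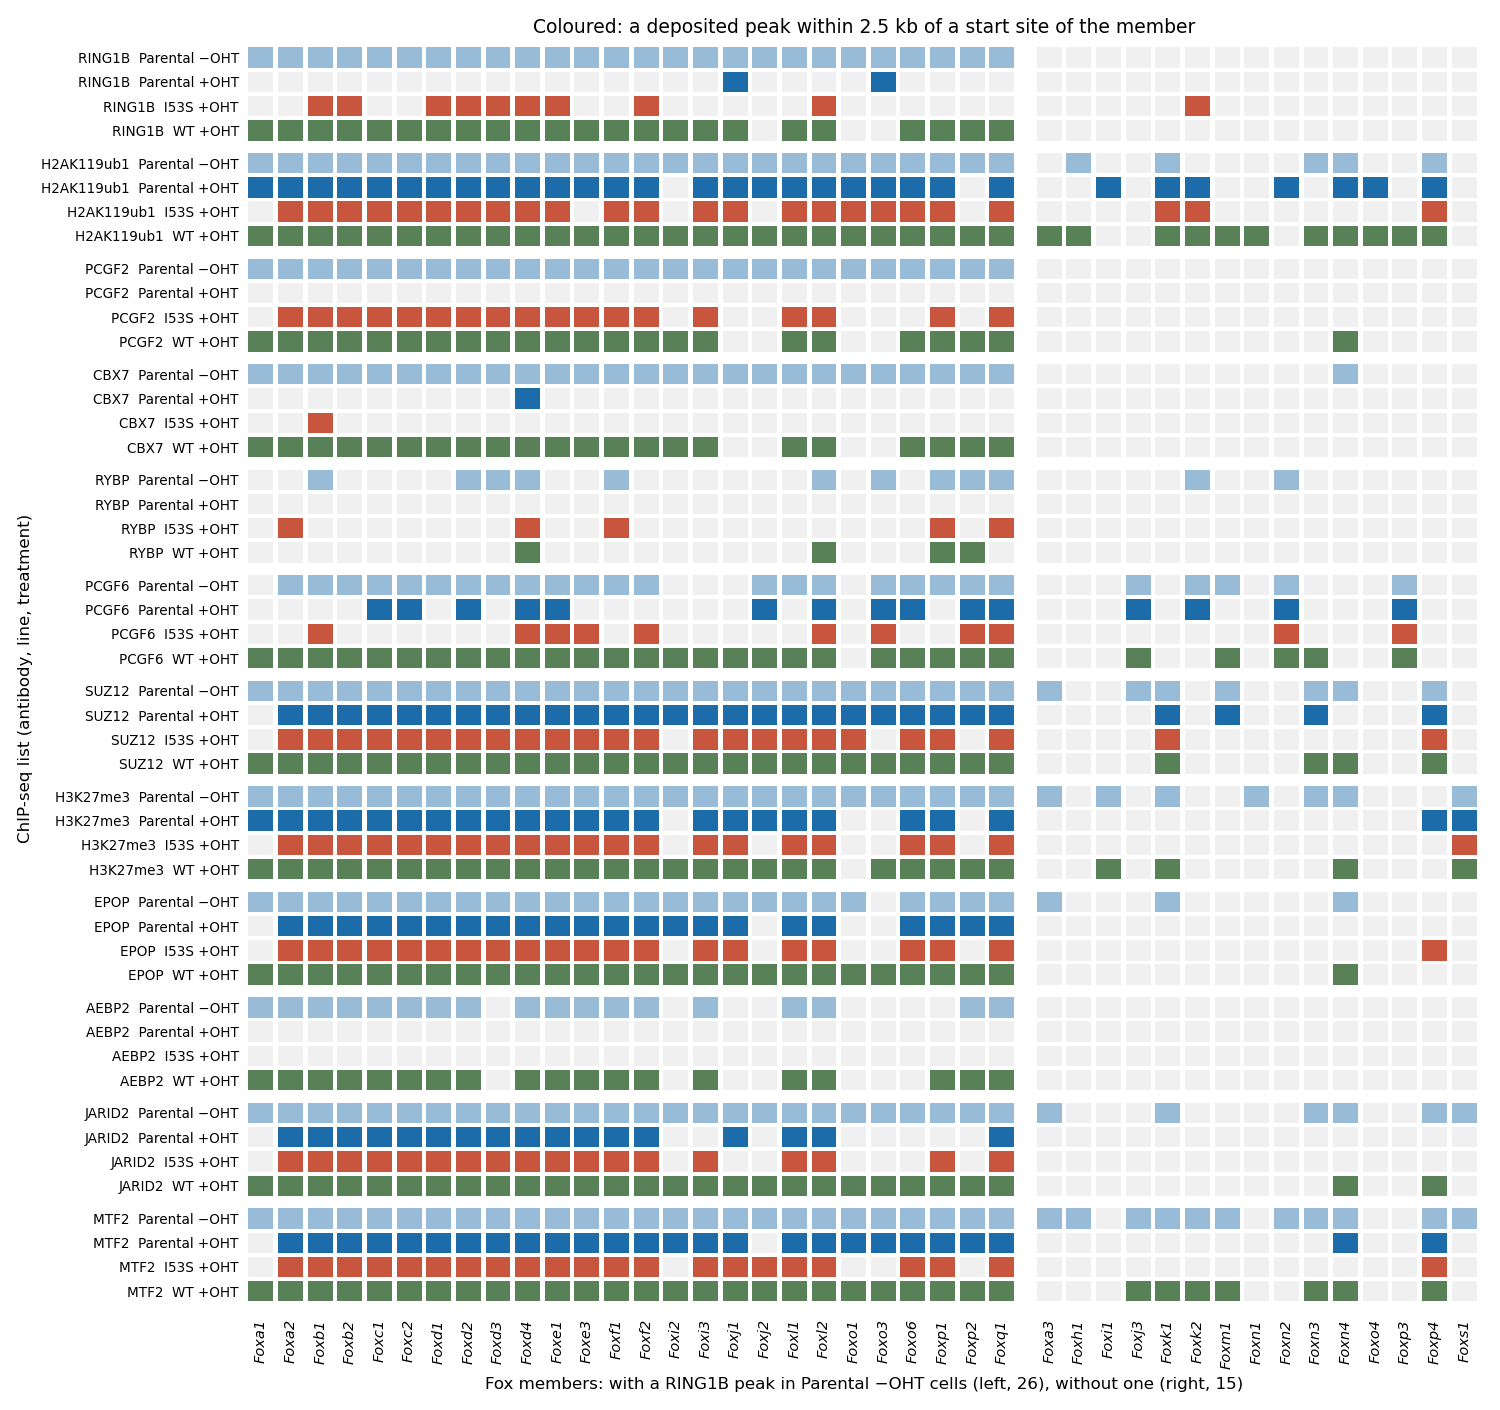
Presence of a peak within 2.5 kb of a start for each of the 41 members (columns, bound then unbound) under 12 antibodies in 4 conditions (rows), in blue for Parental (paler for −OHT), orange for RING1B I53S and green for RING1B WT, taking the first of the 72 h libraries where there were 2. RING1B, PCGF2 and CBX7 are nearly empty in Parental +OHT and fill again in RING1B WT. Peaks of SUZ12, H2AK119ub1 and H3K27me3 are called at most bound members in RING1B I53S, which gives no level of the signal.

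After RING1B loss, peaks of RING1B, CBX7, PCGF2, RYBP and AEBP2 left nearly all bound Fox genes. Peaks of SUZ12, EPOP and both histone marks were still called at most of them. In Parental +OHT, RING1B peaks were left at 2 of the 26 bound members (Foxj1 and Foxo3), CBX7 at 1 (Foxd4), PCGF6 at 11 (all bound genes 35.2%) and PCGF2, RYBP and the PRC2 subunit AEBP2 at none. SUZ12 remained at 25, with Foxa1 as the gene that lost it, H3K27me3 at 22 and EPOP at 22, beside 79.0%, 70.8% and 44.3% of all bound genes. H2AK119ub1 peaks were still called at 24, beside 66.0%. The paper, however, reported global loss of H2AK119ub1 on western blots of Parental and RING1B I53S cells with OHT. From its ChIP-seq signal it also reported complete loss at PRC1 targets in RING1B I53S, so the calls are not to be read as a retained mark. Each list was called on its own against an input and without the spike-in scaling used for histone marks, so a peak says that a site stood above its local background in that library and gives no level. The length of the called peaks is a further descriptor with the same limit. It was taken over the bound members with a peak in each list, so the members differ between conditions. The median covered length went from 6.67 kb in Parental −OHT to 3.91 kb with OHT for SUZ12, from 5.64 to 3.04 kb for H2AK119ub1 and from 8.37 to 5.55 kb for H3K27me3. The mean length of all peaks in these lists also went down, from 1.95 to 1.39 kb, from 1.84 to 1.46 kb and from 2.29 to 1.82 kb. Of the peaks in the Parental +OHT RING1B list, 82.6% lay on chromosome 11, which carries Foxi1, Foxj1, Foxk2 and Foxn1, and the part of this in the Foxj1 peak was not tested.

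RING1B I53S kept a reduced set of peaks. The tagged inactive protein gave RING1B peaks at 9 of the 26 bound members (Foxb1, Foxb2, Foxd1, Foxd2, Foxd3, Foxd4, Foxe1, Foxf2 and Foxl2), beside 8.37% of all bound genes, in a list with 66.8% of its peaks on chromosome 11. None of these 9 lies on that chromosome, but Foxk2, an unbound member with a RING1B peak in this list, does. Peaks of PCGF2 were called at 18 (69.2%, all bound genes 12.6%), CBX7 at 1, SUZ12 at 22 (84.6%, all bound genes 53.5%), H3K27me3 at 20 (76.9%, 50.9%) and H2AK119ub1 at 21 (80.8%, 43.5%). The gaps fell on a few genes, singled out here after their values were seen. Foxa1, Foxi2, Foxj2, Foxo1, Foxo3 and Foxp2 lacked H3K27me3, and Foxa1, Foxi2, Foxo3 and Foxp2 lacked SUZ12. Over 1 list of each of the 12 antibodies (the first library for JARID2 and MTF2), Foxa1 and Foxi2 had no peak in RING1B I53S, Foxp2 had 1 and Foxj2, Foxo1 and Foxo3 had 2, against a median of 7.5 over the bound members and 10 each for Foxb1 and Foxd4. The second MTF2 library of RING1B I53S at 72 h did have peaks at 5 of these 6, with Foxo3 as the exception. In Parental −OHT these 6 members had had peaks of 9 to 12 antibodies. Foxf1 kept SUZ12 over 6.82 kb and H3K27me3 over 7.84 kb while its counts rose to 65 and 64, and Foxa1, which kept neither, rose to 42 and 53.

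In RING1B WT, most lists held nearly as many bound members as the untreated ones. RING1B was at 23 of the 26 bound members (71.3% of all bound genes), with Foxj2, Foxo1 and Foxo3 missing, which are 3 of the 4 with the lowest peaks in Parental −OHT. CBX7 and PCGF2 were at 22 each, in both cases without Foxj1, Foxj2, Foxo1 and Foxo3, beside 52.5% and 70.7% of all bound genes. SUZ12, H2AK119ub1 and EPOP were at all 26, beside 91.7%, 83.1% and 89.3%. Over the bound members with a peak, the median SUZ12 length was 5.46 kb, against 2.04 kb in RING1B I53S, and that of H2AK119ub1 was 7.0 kb against 2.16 kb. The mean length of all peaks in these lists was 1.82 kb against 1.21 kb for SUZ12 and 2.14 kb against 1.4 kb for H2AK119ub1. AEBP2, absent from all members in Parental +OHT and RING1B I53S, was at 19 (all bound genes 26.1%). PCGF6 was at 25 (83.3%), against 9 in RING1B I53S. RYBP was the exception, at 4 (21.4%) against 10 in Parental −OHT (42.3%) and 5 in RING1B I53S (11.3%). Over all bound genes the RYBP share was thus higher in RING1B WT than in RING1B I53S, unlike the Fox counts.

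JARID2 and MTF2 were followed over time. JARID2 peaks were at 26 bound members in Parental −OHT, at 21 after 48 h and at 17 after 72 h, beside 95.5% of all bound genes in Parental −OHT and 57.3% after 48 h. After 72 h the share of all bound genes was lower than after 48 h, and it lay below the 65.4% of the bound Fox members. In RING1B I53S the JARID2 peaks went from 25 to 18 at 48 h and to 18 and 9 in the lists of 2 libraries at 72 h. Over all bound genes these shares were 85.9%, 22.6%, 21.7% and 8.41%. In RING1B WT the JARID2 peaks stayed at 25, 25, 26 and 26, beside 89.3%, 84.1%, 86.9% and 84.3%. The 9 members with JARID2 in both 72 h lists of RING1B I53S were Foxb1, Foxb2, Foxc1, Foxc2, Foxd2, Foxd4, Foxf1, Foxf2 and Foxl2. MTF2 peaks held on longer, at 26, 26 and 24 in Parental and at 26, 26 and then 21 and 25 in RING1B I53S. Over all bound genes the MTF2 shares were 98.5%, 89.9% and 81.6% in Parental and 94.3%, 85.5%, 48.7% and 76.9% in RING1B I53S. The longer hold of MTF2 was thus general to bound genes. The 2 libraries of RING1B I53S at 72 h thus differed from each other for both proteins. Without MTF2, SUZ12 peaks were at 21 of the 26 in untreated Parental cells, at 4 with OHT, at 1 in RING1B I53S (Foxb1) and at 23 in RING1B WT, beside 54.0%, 13.1%, 3.35% and 57.1% of all bound genes. H3K27me3 peaks there numbered 16, 0, 1 (Foxf1) and 18, beside 44.9%, 2.23%, 5.46% and 32.4%. In Parental +OHT and RING1B I53S without MTF2, the Fox counts were thus near the general share. On chromosome 11 lay 24.2%, 67.2%, 62.7% and 29.4% of the peaks in these SUZ12 lists, and 31.6%, 59.6%, 52.7% and 31.7% in the H3K27me3 lists, whose part in these counts was not tested. RNA was not analysed here for these clones.

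Genes that act with or downstream of Fox factors were read from 5 lists. The 19 FOXM1 targets in mitosis had log2 fold changes between -0.76 and 0.91 in Parental and between -0.57 and 1.13 in RING1B I53S, all short of the fold threshold. Counts of risen genes in the lists stand beside the 15.1% of all genes that rose in Parental and the 12.8% in RING1B I53S. Those for the FOXO, FOXH1 and cilia lists are near these shares. Counts of fallen genes stand beside 1.83% of all genes in Parental and 1.04% in RING1B I53S. Among 20 tested FOXO targets, Txnip (1.55) and Klf6 (1.61) rose and Klf2 (-2.48) fell in Parental, and Irs2 (1.5) and Klf6 (1.55) rose and Klf2 (-1.54) fell in RING1B I53S. Of 15 genes around FOXH1 and Nodal, Mixl1 (2.98) and Gsc (3.15), which mark mesendoderm, rose in Parental while the Nodal antagonists Lefty1 (-3.83) and Lefty2 (-3.32) and the co-receptor Tdgf1 (-3.36) fell, and the same 5 were called with the same sign in RING1B I53S. Foxh1 itself was not called in either line. Of 13 tested genes of endoderm and liver around FOXA, 8 rose and none fell in each of these lines, among them Sox17 (5.73 in Parental), Gata6 (8.77) and Krt18 (2.33). Of 17 tested motile cilia genes around FOXJ1, Spag6 (8.61), Ccno (3.1) and Mcidas (3.57) rose in Parental, Spag6 and Ccno in RING1B I53S and Ccno (2.46) in RING1B WT. Ccno and Mcidas act in making ciliated cells, and the other axonemal genes tested were not called.

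Markers of cell types moved in the same libraries. Their counts stand beside 15.1%, 12.8% and 1.34% of all tested genes called higher in Parental, RING1B I53S and RING1B WT. Among tested bound genes 46.3%, 42.1% and 4.53% were called higher. Fallen genes made up 1.83% in Parental and 1.04% in RING1B I53S. Some markers are also in the lists above, among them Gata4, Gata6, Sox17 and Krt18 in the FOXA list. The limit set by the low-count filter holds for markers near 0 without OHT. ESC markers summed to between 6530 and 7770 CPM in Parental −OHT and to between 3600 and 3670 with OHT, with Sox2, Zfp42 and Tdgf1 of 10 called lower. In RING1B I53S the sum went from between 6160 and 7360 to 3850 CPM, and in RING1B WT from between 6570 and 7800 to between 6190 and 6360. Primitive endoderm markers, 6 of 7 tested called higher in Parental and in RING1B I53S, summed to between 31.2 and 31.8 CPM in Parental −OHT, with Gata6 and Sox7 at 0, and to between 74.8 and 85.5 CPM with OHT. Trophoblast markers (6 of 8 in Parental, 5 in RING1B I53S, 3 in RING1B WT) summed to between 179 and 207 CPM in Parental −OHT and between 494 and 505 CPM with OHT. Fibroblast markers (3 of 5 in Parental, 2 in RING1B I53S) summed to between 23.7 and 24.2 CPM in Parental −OHT and between 68.6 and 70.8 CPM with OHT, with Col3a1, Dcn and Lum at 0 in both. Neural markers (2 of 4 higher in Parental and in RING1B I53S, 0 in RING1B WT, Tubb3 lower in Parental) summed to between 70.5 and 100 CPM in Parental −OHT and between 60.5 and 71.4 CPM with OHT. In bulk RNA, fewer cells of a type and less RNA per cell cannot be told apart, and the part of cell composition in the Fox values was not tested.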

How the data were processed

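RNA was measured in 16 libraries (8 groups of 2 samples labelled as replicates) made from poly-A RNA by SMART-seq2. As stated by the study, the authors aligned reads with STAR (2.7), removed duplicates and counted them without strand over exons of GENCODE M21 on mm10 with featureCounts, and the deposited table holds raw counts per gene name. The authors called peaks per library with Bowtie (1.2.2) alignments and MACS2 (2.1.1) at a p of 1e-10 against an input, and the deposited lists hold positions and the −log10 p of each peak, with no spike-in scaling. The normalized table and the authors' comparison tables, which hold log2 fold changes and p-values, were not used.

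Counts were fitted with edgeR (4.0.16, quasi-likelihood, TMM scaling, filterByExpr) in R (4.3.3), the 12 libraries of the RING1B lines in 1 fit (18154 genes, biological coefficient of variation 0.181) and the 4 Eed libraries in another (25170 genes, 0.251). Calls needed a log2 fold change of 1.5 or more in either direction together with an adjusted p (Benjamini-Hochberg) under 0.05. With 2 samples a group and no statement in the labels on separate cultures, the p-values measure the spread between these samples. Where a −OHT group had 0 counts, folds were computed against a floor of 3 counts over the group, and with few counts an exact 95% interval of the ratio is given. The steps were tested on simulated counts. The changed genes there had total counts at or above the median, and all genes shared a dispersion, so calls made from counts near 0 were not covered. Alternatives were DESeq2 (1.42.0), other scaling, filters and fold thresholds, a replicate block, leaving out each library, other peak windows (1 and 5 kb), a −log10 p of at least 20 and other definitions of bound genes.

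A member was bound when a RING1B peak of Parental −OHT overlapped the stretch within 2.5 kb of any of its annotated starts. Counts in every library are given for each member called in an OHT comparison and for the 8 unbound members with the highest mean CPM, other members are given by ranges, and promoters for up to 6 members by rank. The members, the gene lists and the tests were chosen with earlier results of these data known. Bound and unbound members were compared by counts and medians only, with no test.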

Additional observations from a re-analysis of the deposited data

Results flagged for a closer look

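For 4 members, both libraries with OHT lay on one side of both libraries without it in one line and on the other side in another line. These opposite directions were not tested as a difference, and the Eed values come from a separate fit. Such pairs of lines numbered 8, each setting a RING1B line against Eed fl/fl. Only members tested in both fits could show one, fewer than the 32 tested in the RING1B lines. The share of such pairs over all genes was not computed. Foxd3, the factor of pluripotent cells and neural crest, was the clearest in size. Its log2 fold changes were -1.43 in Parental, -2.08 in RING1B I53S and -0.59 in RING1B WT, against 0.59 in Eed fl/fl, where its counts were 13 and 16 without and 19 and 24 with OHT. Foxd3 had a RING1B peak in Parental −OHT and none in Parental +OHT. Foxa3, the unbound FOXA gene of liver, had 0.92 in Parental and -0.57 in Eed fl/fl. Foxk2 had -0.17 in Parental and -0.26 in RING1B WT, against 0.31 in Eed fl/fl. Foxp4, an unbound member known from lung and heart, had -0.24 in Parental and -0.56 in RING1B WT, against 0.64 in Eed fl/fl. Of these values, the Foxd3 change in RING1B I53S passed the test.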

How the results depend on the processing

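Over 41 calls of single members and all alternatives run for them, 367 of 449 values kept their direction and side of the threshold, 82 kept the direction and lost the call, and 0 reversed. In Parental, 6 members were called when a mean of at least 1 CPM was required, which leaves few silent genes to test, and 13 with DESeq2. In RING1B I53S, 9 were called with DESeq2 and 6 at a mean of at least 1 CPM. In RING1B WT, 0 were called with DESeq2 or with its 4 libraries alone and 2 without a filter. Between RING1B I53S and RING1B WT at +OHT, DESeq2 called 2, and between RING1B WT and Parental it called 1 and the filter at 1 CPM left 2. The cause was not tested where it is not the filter. Leaving out each library in turn gave 11 to 13 calls in Parental, 6 to 11 in RING1B I53S, 0 to 1 in RING1B WT, 1 to 4 between RING1B I53S and RING1B WT and 1 to 3 between RING1B WT and Parental. Without RING1B WT +OHT replicate 1, the 1 call was of another member than Foxp2. The windows and the higher score were run for 8 lists of RING1B, H2AK119ub1, H3K27me3 and SUZ12, whose counts of members stayed within 1.5 times, as did the called bound members under other definitions of bound. Members near 0 counts could show only large changes at this depth.

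The replicate numbers carry no stated pairing. Deviations of same-numbered samples correlated at 0.11 in Parental, 0.18 in RING1B I53S, 0.04 in RING1B WT and 0.57 in Eed fl/fl. With a replicate block, 15 members were called in Parental, 15 in RING1B I53S (with Foxo6 added), 1 in RING1B WT, 1 in Eed fl/fl (Foxj1, log2 fold change 1.72, SE 0.56, adjusted p = 0.0349), 5 between RING1B I53S and RING1B WT (with Foxa1 added) and 7 between RING1B WT and Parental. Over all genes, the replicate block raised the Eed calls from 2 to 140 higher and 21 lower.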
